A study of Mus musculus with 8 samples.

Results

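A set of 10 genes known as transcripts of leptomeningeal fibroblasts, the connective tissue cells of the arachnoid and pia that wrap the brain surface, was followed in bulk RNA sequencing of mouse cingulate cortex: Dcn, Lum, Col1a1, Col1a2, Col3a1, Igf2, Igfbp2, Slc6a13, Slc13a4 and Aldh1a2. They were listed by name as known marker genes of these cells, and they are 10 of the 53379 genes in the count table. Counts were high enough to test in 9 of the 10, among 16914 genes tested, and Igf2 was too low. The 8 libraries came from the cingulate gyrus of untreated male mice, 4 of them wild type (WT, Mvp+/+) and 4 homozygous for a gene-trap allele of Mvp, which encodes the major vault protein (Mvp KO, Mvp-/-), and the comparison asks which transcripts change when Mvp is lost. The allele is constitutive, so that no cell type carried it alone, and it carries a β-galactosidase/neomycin cassette in the first intron, with a polyadenylation signal that ends transcription. The age of these animals and whether WT and Mvp KO mice were littermates are not given in the sources used here, and neither is whether each library is 1 animal, so that p-values measure the spread between libraries.

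Leptomeningeal fibroblasts lay down a collagen and proteoglycan matrix over the cortex, secrete growth factors and retinoic acid toward it, and carry transporters that exchange solutes with the cerebrospinal fluid. Some members are less specific than others: collagen genes are also transcribed by perivascular fibroblasts, and Igfbp2 by other cells of the brain. The level of these genes in a piece of cortex therefore depends on the leptomeninges that come with it as well as on the cells themselves. In bulk RNA, fewer cells of a type and less RNA per cell cannot be told apart.

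The 2 genotypes overlapped in all 10 members, none of the 9 tested passed the test, and levels varied several-fold between libraries of the same genotype. Levels are given as CPM, the usual depth-scaled count, here relative to the TMM-scaled total of the genes tested, and differences as log2 fold changes of Mvp KO over WT from the edgeR quasi-likelihood test with Benjamini-Hochberg adjustment over all genes tested. Past an adjusted p of 0.05, 0 of the 9 tested members were called, where 0.00591% of all genes were (1 gene, Mvp). At an unadjusted p under 0.05 the count was also 0 of 9, against 1.56% of all genes, and 0 of 9 had groups that did not overlap, against 1.52%. The 95% intervals lay within a 2-fold change in either direction for 3 of the 9 members and within 1.5-fold for 0, whereas 86.7% of all genes tested lay within 2-fold, so that moderate differences in most members were not detectable with these libraries.

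Library totals ran from 28456504 to 42854368 counts with no difference between WT and Mvp KO past the test (two-sided exact permutation p = 0.686). Mvp, the targeted gene, was at 6.83 ± 1.0 CPM in WT and 1.63 ± 0.334 CPM in Mvp KO (SD, n = 4 each; log2 fold change -2.06, adjusted p = 0.0162), and the genotypes did not overlap. That call was lost when any 1 of WT 1, WT 2, WT 3, Mvp KO 1, Mvp KO 2 or Mvp KO 4 was left out, with an adjusted p of up to 0.147, while the log2 fold change in those fits stayed at -2.06 to -1.99. DESeq2 and limma voom kept it with all libraries (adjusted p = 9.6e-22 and 0.0012). WT 4 stood apart across the transcriptome: it held the lowest level of the 8 libraries for 32.5% of the genes tested and the highest for 29.2%, against 13.8% and 15.5% for Mvp KO 1. Of the 10 members, 8 were highest in Mvp KO 1 and 7 lowest in WT 4, with both in 6.

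For the 4 members shown next, the 150 bases before the annotated start were taken from RefSeq (GRCm38.p6; 7 of the 10 members had an entry), because 3 of them, Slc6a13, Slc13a4 and Aldh1a2, varied most across libraries and moved together, and Col3a1 varied most among the collagens. Each is written 5′ to 3′ on the strand of its gene, and capitals mark matches to the CCAAT box (CCAAT), the TATA box (TATAAA) or the GC box (GGGCGG) on either strand. The windows were chr6:121300077-121300226 (+) for Slc6a13, chr6:35308132-35308281 (-) for Slc13a4, chr9:71215639-71215788 (+) for Aldh1a2 and chr1:45311388-45311537 (+) for Col3a1.
Slc6a13: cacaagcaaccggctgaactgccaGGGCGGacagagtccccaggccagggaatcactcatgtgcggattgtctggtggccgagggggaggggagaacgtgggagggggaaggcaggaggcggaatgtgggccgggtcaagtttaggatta
Slc13a4: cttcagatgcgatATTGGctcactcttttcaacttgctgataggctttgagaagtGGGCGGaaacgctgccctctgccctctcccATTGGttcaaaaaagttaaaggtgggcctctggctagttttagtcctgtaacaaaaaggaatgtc
Aldh1a2: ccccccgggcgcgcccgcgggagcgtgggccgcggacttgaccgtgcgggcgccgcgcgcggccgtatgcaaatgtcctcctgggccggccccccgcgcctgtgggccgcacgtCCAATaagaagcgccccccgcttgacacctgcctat
Col3a1: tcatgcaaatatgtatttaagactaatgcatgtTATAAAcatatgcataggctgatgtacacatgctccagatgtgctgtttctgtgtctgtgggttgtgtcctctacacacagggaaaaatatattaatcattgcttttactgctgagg

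The 4 sequences shared none of the 3 boxes. A CCAAT box was present in the Slc13a4 window (2 matches, both on the reverse strand) and in that of Aldh1a2 (1 match), a GC box in those of Slc6a13 and Slc13a4 (1 match each), and a TATA box in that of Col3a1 (1 match). Among 32851 promoter windows of the same length, 24.5% held a CCAAT box, 28.6% a GC box and 7.57% a TATA box. Base composition also differed, from 37.3% G and C before Col3a1 to 76.0% before Aldh1a2, with a median of 54.0% over all windows. A match is a run of letters and not a measured binding site.

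The most variable members were the transporters and the retinoic acid enzyme. Slc6a13 (chr6:121300227-121337733) encodes GAT2, a plasma membrane transporter of GABA and taurine that marks the leptomeninges in brain. Its levels were 14.2, 17.8, 13.3 and 1.24 CPM in WT 1 to 4, and 22.7, 9.90, 5.37 and 10.4 CPM in Mvp KO 1 to 4. WT 4 was far below every other library, at 9.34% of the median of the other 7, while Mvp KO 1 was highest at 2.19 times the corresponding median, and the 2 genotypes overlapped. The log2 fold change was 0.05 (95% interval -1.42 to 1.52, adjusted p = 0.992).

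Slc13a4 (chr6:35267957-35308131, minus strand), a sodium-coupled sulfate transporter, followed the same order at both ends. It was at 7.05, 11.9, 5.96 and 0.667 CPM in WT and at 16.1, 3.66, 2.66 and 7.93 CPM in Mvp KO. The highest library exceeded the lowest 24.1-fold, the widest range of the 9 tested members, and rested on 645 counts in Mvp KO 1 and 21 in WT 4. Genotypes overlapped (log2 fold change 0.24, 95% interval -1.43 to 1.91, adjusted p = 0.978).

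Aldh1a2 (chr9:71215789-71296243) encodes RALDH2, which makes retinoic acid from retinaldehyde and is a landmark enzyme of the meninges. WT libraries measured 5.57, 9.63, 6.17 and 0.699 CPM and Mvp KO libraries 12.97, 5.05, 1.89 and 4.18 CPM. WT 4 again stood lowest, at 12.5% of the median of the others, and Mvp KO 1 highest, with the 2 groups overlapping. The genotype difference was 0.12 on the log2 scale (95% interval -1.46 to 1.71, adjusted p = 0.985).

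The small leucine-rich proteoglycans come next, a family whose core proteins bind collagen fibrils. Dcn (decorin, chr10:97479609-97518143) and Lum (lumican, chr10:97565128-97572703) are neighbours, with 46984 bases between them. Dcn was at 9.97, 12.02, 11.4 and 3.75 CPM in WT and at 28.3, 8.93, 5.02 and 8.77 CPM in Mvp KO. The high mean in Mvp KO (12.8 ± 10.5 CPM against 9.27 ± 3.78 CPM in WT, SD, n = 4 each) rested on Mvp KO 1, since no other Mvp KO library exceeded 8.93 CPM. The log2 fold change was 0.46 (95% interval -0.74 to 1.66, adjusted p = 0.969), and it was -0.29 without Mvp KO 1.

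Lum was at 2.68, 2.56, 3.95 and 1.43 CPM in WT and at 8.16, 3.36, 1.84 and 1.37 CPM in Mvp KO. Here the lowest library was Mvp KO 4 and not WT 4, which lay next to it, and Mvp KO 1 was again the highest. Genotypes overlapped (log2 fold change 0.48, 95% interval -0.73 to 1.69, adjusted p = 0.969), and the value was -0.27 without Mvp KO 1.

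Fibrillar collagens were less variable, except Col3a1. Col1a1 (chr11:94936224-94953042) and Col1a2 (chr6:4504814-4541544) encode the chains of type I collagen. Col1a1 was at 3.60, 4.42, 3.34 and 1.08 CPM in WT and at 4.72, 3.25, 1.47 and 3.05 CPM in Mvp KO. The means were almost equal, at 3.11 ± 1.43 and 3.12 ± 1.33 CPM (SD, n = 4 each), with overlapping groups and a log2 fold change of 0.00043 (95% interval -0.99 to 0.99, adjusted p = 0.99997).

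Col1a2 had the most counts of the 10 members (5204 over all libraries). It was at 21.9, 18.1, 20.2 and 10.7 CPM in WT and at 26.1, 12.7, 14.6 and 20.3 CPM in Mvp KO. Its range was narrow, 2.43-fold from WT 4 to Mvp KO 1, and the groups overlapped (log2 fold change 0.06, 95% interval -0.55 to 0.66, adjusted p = 0.983).

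Col3a1 (chr1:45311538-45349706) encodes type III collagen, the partner of type I in loose connective tissue. WT libraries were at 2.01, 3.15, 3.80 and 1.08 CPM and Mvp KO libraries at 8.48, 2.89, 0.842 and 2.04 CPM. Mvp KO 1 was 4.17 times the median of the other libraries, the largest such ratio among the members, and the lowest library was Mvp KO 3. The log2 fold change was 0.51 with all libraries (95% interval -0.93 to 1.94, adjusted p = 0.969) and -0.39 without Mvp KO 1.

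The insulin-like growth factor members differed in level, and only Igfbp2 could be tested. Over the 8 libraries their log2 CPM had a Pearson's r of 0.80 and a Spearman's rho of 0.86, beside a median r of 0.83 over all 45 pairs of members. Without WT 4 and Mvp KO 3, the 2 libraries farthest from the median of Igf2, r was 0.66. These values rest on 0 to 23 counts of Igf2 per library. Igfbp2 (chr1:72824503-72852474), a secreted binding protein for IGF1 and IGF2, was at 16.2, 22.8, 15.9 and 12.9 CPM in WT and at 22.7, 14.3, 11.5 and 14.8 CPM in Mvp KO. It was the steadiest member, with a 1.98-fold range, its highest library was WT 2, only just above Mvp KO 1, and its lowest was Mvp KO 3. It was also the only tested member that was lower in Mvp KO over all libraries (log2 fold change -0.10, 95% interval -0.61 to 0.41, adjusted p = 0.972).

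Igf2, the growth factor that fibroblasts of the meninges secrete, had only 69 counts over the 8 libraries. Counts were 6, 23, 14 and 0 in WT and 13, 4, 1 and 8 in Mvp KO, which is 0.177, 0.530, 0.403 and 0 CPM and then 0.324, 0.111, 0.0263 and 0.281 CPM. WT 4 had no count, which allows a level of up to 0.0953 CPM (3 counts, counting error only). The gene lies on the minus strand at chr7:142650766-142666816, and 62.8% of its exonic bases are shared on that strand with Gm49394, so that reads there could not be assigned to a single gene by counting that drops ambiguous reads, and its level is uncertain.

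**Figure D1:**
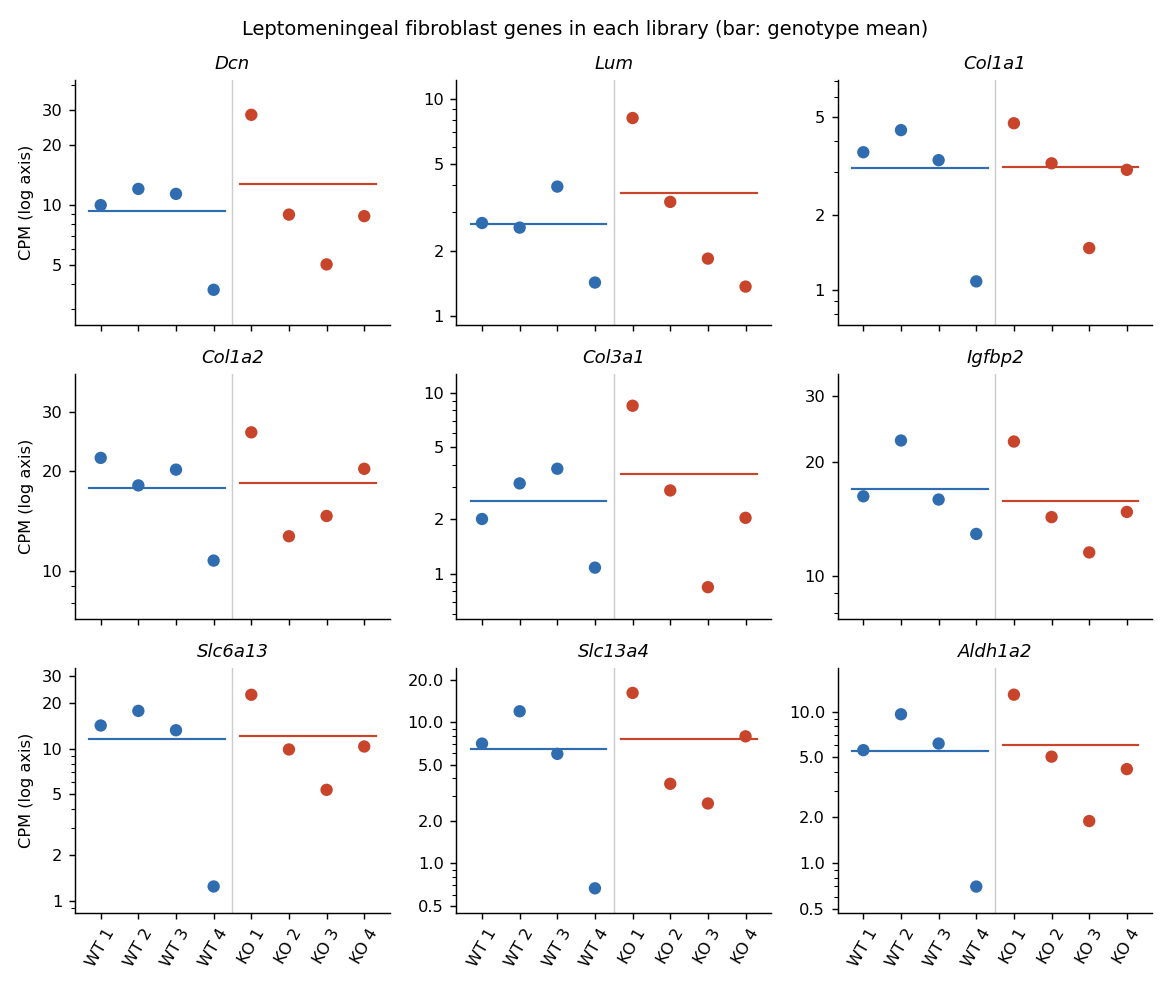
Level of the 9 tested members in each library, in CPM on a log axis, with WT libraries in blue, Mvp KO libraries in red and a bar at the mean of each genotype. Mvp KO 1 is the highest point in 8 panels and WT 4 the lowest in 6, and the genotypes overlap in all 9.

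Compared per kilobase of exon, the mean level over the 8 libraries was highest for Igfbp2 (8.88 CPM per kb), followed by Slc6a13 (4.08) and Aldh1a2 (2.55). Dcn (1.89), Slc13a4 (1.54), Col1a2 (1.45) and Lum (1.29) formed a middle group. The lowest were Col1a1 (0.475), Col3a1 (0.309) and Igf2 (0.0405 CPM per kb). The transporters and the enzyme stood above the collagens on this scale of level per exon length, Slc13a4 only narrowly above Col1a2. Exon length here is the union of all annotated exons of a gene, 12426 bases for Col1a2 and 4528 for Slc13a4. It can exceed the length of any single transcript, so the order depends on this choice of length.

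Across the 9 tested members, the log2 fold change was above 0 in 8 and below 0 in 1, with a median of 0.12, beside 8457 genes higher and 8457 lower among all genes tested. This direction depended on single libraries. Without Mvp KO 1, 0 members were higher and 9 lower, with a median of -0.33, and without WT 4, 3 were higher and 6 lower, with a median of -0.13. With limma voom and quality weights, which gave WT 4 a weight of 0.163 and Mvp KO 1 one of 0.609, 0 were higher and 9 lower, with a median of -0.62. In each of these fits too, 0 of the 9 members had an unadjusted p under 0.05.

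**Figure D2:**
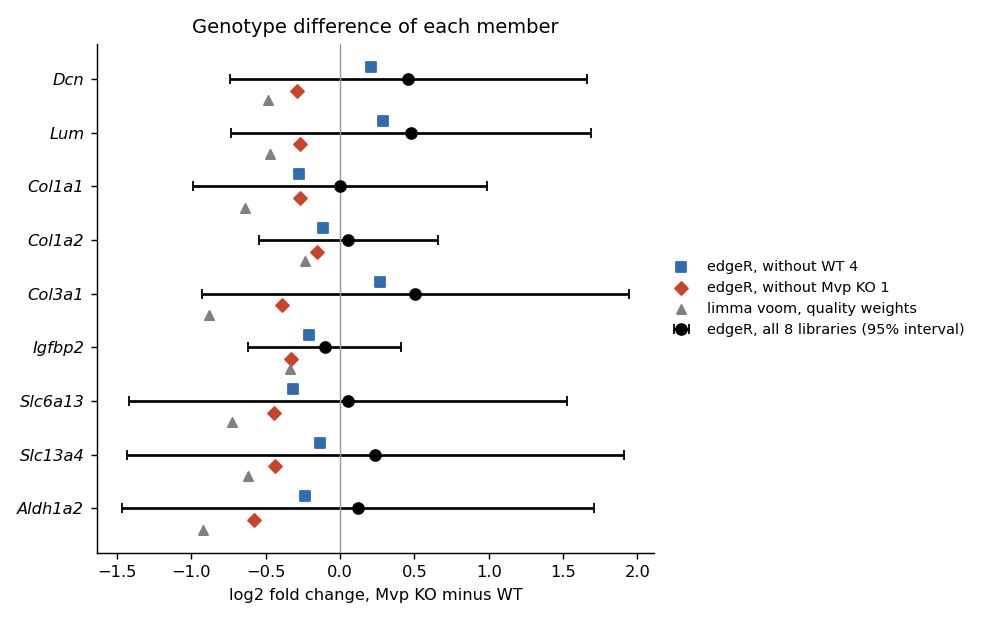
Log2 fold change of Mvp KO over WT for the 9 tested members, in edgeR with all 8 libraries (black, with the 95% interval), without WT 4 (blue), without Mvp KO 1 (red) and in limma voom with quality weights (grey). All black intervals cross 0, and all 9 red and all 9 grey points lie below 0.

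Summed over the 10 members, the level was 83.4, 102.9, 84.3 and 33.6 CPM in WT and 150.5, 64.2, 45.3 and 73.0 CPM in Mvp KO. Mvp KO 1 held the highest sum and WT 4 the lowest, and the genotypes overlapped. The genotype means were 76.1 ± 29.7 and 83.3 ± 46.3 CPM (SD, n = 4 each), a ratio of Mvp KO to WT of 1.09.

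Levels of these genes spread widely within a genotype. The SD of log2 CPM within genotype had a median of 0.922 over the 9 tested members and ran from 0.374 (Igfbp2) to 1.504 (Slc13a4), beside a median of 0.200 over all genes tested, which all 9 exceeded. Highest in Mvp KO 1 and lowest in WT 4 at once were 6 of the 9 members: Dcn, Col1a1, Col1a2, Slc6a13, Slc13a4 and Aldh1a2. Over all genes tested, 7.28% showed that combination.

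The members varied together from library to library. Of the 45 pairs of members, 37 had a positive Pearson's r of log2 CPM past an adjusted p of 0.05 by exact permutation over the 8 libraries, and 27 had such a Spearman's rho, with Benjamini-Hochberg adjustment over the 45 pairs. The median r was 0.83 and the median rho 0.81. After leaving out, pair by pair, the 2 libraries farthest from the median of the first gene, the median r was 0.81 and the lowest 0.43. Both WT 4 and Mvp KO 1 were left out only with Dcn or Slc13a4 as the first gene. There r ran from 0.51 (Dcn with Col1a2, at 0.83 over all 8 libraries) to 0.97 (Dcn with Aldh1a2). All other pairs kept WT 4 or Mvp KO 1. Computed on deviations from the genotype means, with all libraries kept, the median r was 0.85. The shared libraries and the shared scaling enter all pairs alike. The share of such pairs among other genes is not given here, so these counts have no background beside them.

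Over all 8 libraries, the transporters and the enzyme had a median r of 0.97 over their 3 pairs, against 0.84 over the 10 pairs of matrix genes. Without the 2 libraries farthest from the median of the first gene, these medians were 0.87 and 0.77. With all libraries, r was 0.98 for Slc6a13 with Aldh1a2 (rho = 0.95, exact permutation, adjusted p = 0.0014 and 0.0073). It was 0.97 for Slc6a13 with Slc13a4 (rho = 0.93, adjusted p = 0.0020 and 0.011) and 0.96 for Slc13a4 with Aldh1a2 (rho = 0.83, adjusted p = 0.0035 and 0.033). The highest r of all 45 pairs was that of Col1a1 with Aldh1a2, also 0.98 (rho = 0.98, exact permutation, adjusted p = 0.0014 and 0.0045). Lum was the loosest: its r was 0.50 with Igf2, 0.57 with Col1a2 and 0.59 with Slc13a4 (rho = 0.43, 0.40 and 0.36), none of which passed (exact permutation, adjusted p for r = 0.207, 0.143 and 0.128, and for rho = 0.313, 0.334 and 0.389). Dcn, its neighbour, had r = 0.86 with Lum (rho = 0.76, exact permutation, adjusted p = 0.018 and 0.055) and r = 0.95 with Col3a1 (rho = 0.88, adjusted p = 0.0064 and 0.023).

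**Figure D3:**
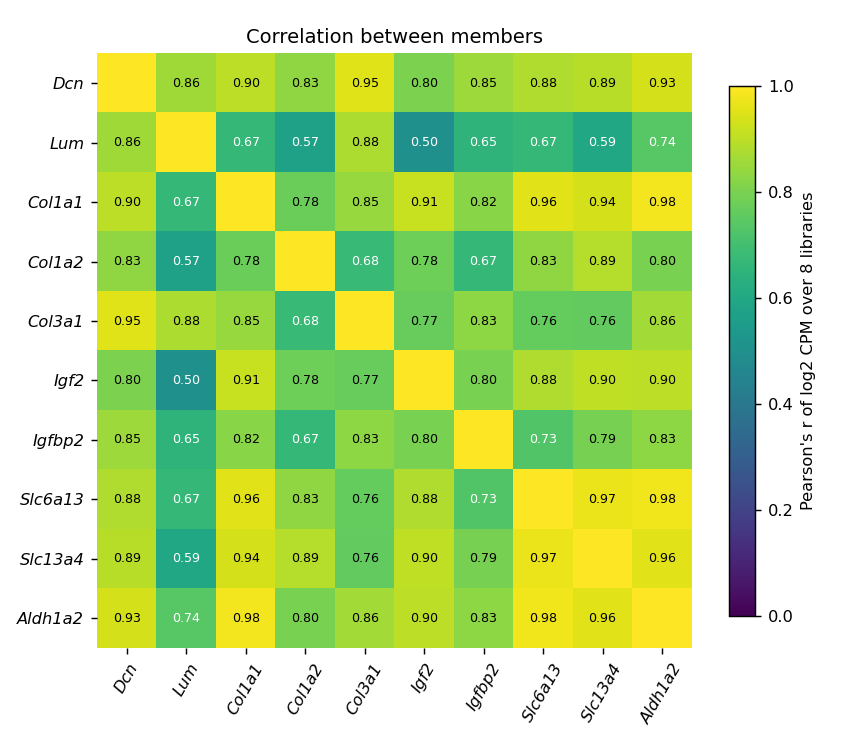
Pearson's r of log2 CPM between each pair of the 10 members over the 8 libraries, coloured from 0 to 1. The block of Slc6a13, Slc13a4 and Aldh1a2 is at 0.96 to 0.98, and the row of Lum holds the lowest value, 0.50.

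Many other genes of the same cells followed the members closely, but not all. A list of 28 further leptomeningeal fibroblast genes passed the filter in full. Of these, 0 passed the adjusted test, beside 0.00591% of all genes tested, and 0 had an unadjusted p under 0.05, beside 1.56%. The log2 fold change was above 0 in 24 and below 0 in 4, with a median of 0.14. As with the members, that direction turned with single libraries, to 5 higher and 23 lower without Mvp KO 1 (median -0.18) and to 13 higher and 15 lower without WT 4 (median -0.02). Their r with the mean standardised level of the members had a median of 0.87 and exceeded 0.9 in 12 of 28, beside 1.17% of all genes tested. The lowest r in the list was -0.60. Both ends, highest in Mvp KO 1 and lowest in WT 4, were seen in 14 of the 28.

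Serping1, the complement C1 inhibitor, tracked the members best of that list (r = 0.99, rho = 1.0). It was at 4.75, 5.34, 5.21 and 0.730 CPM in WT and at 12.3, 3.27, 1.92 and 3.69 CPM in Mvp KO, which places Mvp KO 1 and WT 4 at the same ends. The strongest gene of the list, Ccn3, did not share that order, at 200.2, 111.0, 132.3 and 176.7 CPM in WT and 144.1, 107.5, 136.0 and 155.5 CPM in Mvp KO. Col12a1, a fibril-associated collagen, had the lowest p of the list, with a log2 fold change of 0.49 (adjusted p = 0.969).

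Among all genes tested, the 10 non-members most like the members' mean over the 8 libraries were Stard9, Serping1, Gm43263, E130307A14Rik, Cbr2, Ifitm2, Alx4, Lox, Colec12 and Loxl2, with r from 0.97 to 0.99. Lox and Loxl2 encode lysyl oxidases, which cross-link collagen, and Cbr2 was on the list of border macrophage markers. Without WT 4 and Mvp KO 1, the 2 libraries farthest from the median, r was between 0.89 and 0.99 for these genes, which were ranked by the same measure.

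Of the families and pathways the members belong to, the proteoglycans had the highest median r with them, though not every gene followed. Among 7 further small leucine-rich proteoglycans tested, 3 of them also on the leptomeningeal list, 0 passed the adjusted test (7 higher, 0 lower, median log2 fold change 0.25). Of the 7, 5 were highest in Mvp KO 1. Their median r with the members was 0.86, from 0.26 (Podn) to 0.96 (Ogn). Without Mvp KO 1, 2 of the 7 were higher and 5 lower. Aspn had the lowest p of that family (log2 fold change 0.25, adjusted p = 0.969), and Bgn the highest level, with 39.1 CPM in Mvp KO 1 against 8.36 to 15.2 CPM elsewhere. Kera, Epyc and Chad were too low to test.

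Collagen processing and fibroblast matrix genes numbered 23, of which 0 passed the adjusted test (10 higher, 13 lower, median log2 fold change -0.01). Without Mvp KO 1 they were 3 higher and 20 lower (median -0.24). Their median r with the members was 0.25. Sparc, a matrix glycoprotein that binds collagen and calcium, had both the lowest p and the highest level (155.6 CPM in WT, 127.0 CPM in Mvp KO, log2 fold change -0.29, adjusted p = 0.969), with WT 4 its highest library at 208.1 CPM.

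Of 14 further insulin-like growth factor genes tested, 0 passed the adjusted test. They were 3 higher and 11 lower (median log2 fold change -0.17), and 8 higher and 6 lower without WT 4. Their median r with the mean of the members was -0.23. Igfbp6 had the lowest p of the list (log2 fold change -0.21, adjusted p = 0.969) and Igfbp5 the highest level (173 CPM in WT, 166 CPM in Mvp KO). Igf2bp1, Igf2bp3, Pappa and H19 were too low to test. In the retinoic acid pathway, 0 of 15 genes passed the adjusted test (8 higher, 7 lower, median 0.02), and their median r with the members was 0.22. Rara had the lowest p (log2 fold change -0.54, adjusted p = 0.969) and Rxrb the highest level (54.0 CPM in WT, 55.5 CPM in Mvp KO). Crabp1 was at or near 0.

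The other transporters of the members' families were mixed. All 5 other GABA, taurine and related transporters were lower in Mvp KO, 0 of them past the test (median log2 fold change -0.08), and their median r with the members was -0.55, although Slc6a12, singled out after its values were seen, reached 0.95. Slc6a8, a creatine transporter, had the lowest p (log2 fold change -0.21, adjusted p = 0.969). Of 6 other sulfate and dicarboxylate transporters, 0 passed the adjusted test (2 higher, 4 lower, median -0.03, and 4 higher and 2 lower without Mvp KO 1), and their median r with the members was 0.46. Slc26a2 was at an unadjusted p under 0.05, as were 1.56% of all genes tested, with a log2 fold change of 0.42 (adjusted p = 0.969). Slc13a5 had the highest level (17.2 CPM in WT, 15.1 CPM in Mvp KO).

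Markers of other cells at the brain surface and in cortex were set beside the members in each library. Their part in the members' variation was not tested. Choroid plexus, a neighbouring source of some of the same transcripts, was nearly absent: the summed level of its 10 markers ran from 6.57 to 9.82 CPM in WT and from 5.92 to 10.5 CPM in Mvp KO, Ttr, its leading transcript, was at 0.868 to 4.35 CPM in all libraries, and Folr1, Kcne2, Slc4a5 and Otx2 were too low to test. Kl had the highest level of that list, at 2.86 to 6.10 CPM. The 7 arachnoid barrier markers summed to 52.3 to 90.6 CPM in WT and 58.6 to 131.5 CPM in Mvp KO, highest in Mvp KO 1 and lowest in WT 4, with Krt18 at or near 0. Cldn11, also on the oligodendrocyte list, was the most abundant at 20.5 to 89.9 CPM. Without it the sums ran from 31.2 CPM in Mvp KO 4 to 41.6 CPM in Mvp KO 1, with Abcg2 the largest part at 21.2 to 25.0 CPM. Over the 6 arachnoid barrier markers tested, the median r with the members was 0.75, from -0.05 (Dpp4) to 0.93 (Slc47a1). Slc47a1, also on the leptomeningeal list, was at 0.0635 CPM in WT 4 and 5.16 CPM in Mvp KO 1.

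Oligodendrocyte markers shared both ends with the members. All 8 were highest in Mvp KO 1 and 6 of 8 lowest in WT 4, and their sum was 1723, 2159, 2786 and 1317 CPM in WT and 5636, 3854, 1942 and 1518 CPM in Mvp KO, so that Mvp KO 2, which was below the median for the members, was second. Mbp, a myelin protein gene, had the highest level of the list. None of the 8 passed the test, and all 8 were higher in Mvp KO, also without Mvp KO 1 and without WT 4 (median log2 fold change 0.67 with all libraries, then 0.29 and 0.52).

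Blood and vessel markers moved in part with the members. The 5 red blood cell markers, led by Hbb-bs, were all lowest in WT 4, with sums of 17.0 CPM there and 24.9 to 57.1 CPM in the other libraries. The 9 mural cell markers summed to 236.3 to 307.8 CPM in WT and 199.5 to 379.9 CPM in Mvp KO, with Mvp KO 1 highest. The 9 endothelial markers ranged only from 248.7 to 355.6 CPM, and 0 were highest in Mvp KO 1, against 5 of the mural markers. Lowest in WT 4 were 4 endothelial and 3 mural markers. The median r with the members was 0.59 for the endothelial list, 0.49 for the mural list and 0.74 for the red blood cell list. Within the mural list, r ran from -0.61 (Notch3) to 0.90. Of the mural genes, Rgs5 had the highest level and Notch3 had groups that did not overlap (15.1 CPM in WT, 11.8 CPM in Mvp KO, log2 fold change -0.36, adjusted p = 0.969). Groups that did not overlap were seen in 1.52% of all genes tested.

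Border macrophage markers, from cells that live in the same membranes, summed to 18.7 to 32.0 CPM in WT and 20.75 to 30.6 CPM in Mvp KO, with WT 4 lowest. In WT 4, 6 of the 8 were at or below 0.5 times the median of the other libraries. That held for 6 of the 9 tested members and for 5.79% of all genes tested. Of the parenchymal lists, 8 cortical neuron markers summed highest in WT 4 (13267 CPM) and lowest in Mvp KO 1 (10071 CPM), the reverse of the members' sum. Their median r with the members was -0.76. Not every marker took part, since r ran from -0.81 to 0.16 and 1 of the 8 was lowest in WT 4. The 8 astrocyte markers (4232 to 5154 CPM) and the 7 microglia markers (350.3 to 397.8 CPM) varied little. Immediate early genes, transcripts induced within minutes of neuronal activity, summed to 2461 CPM in WT 4 and to 591.4 to 1612 CPM in the other libraries.

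**Figure D4:**
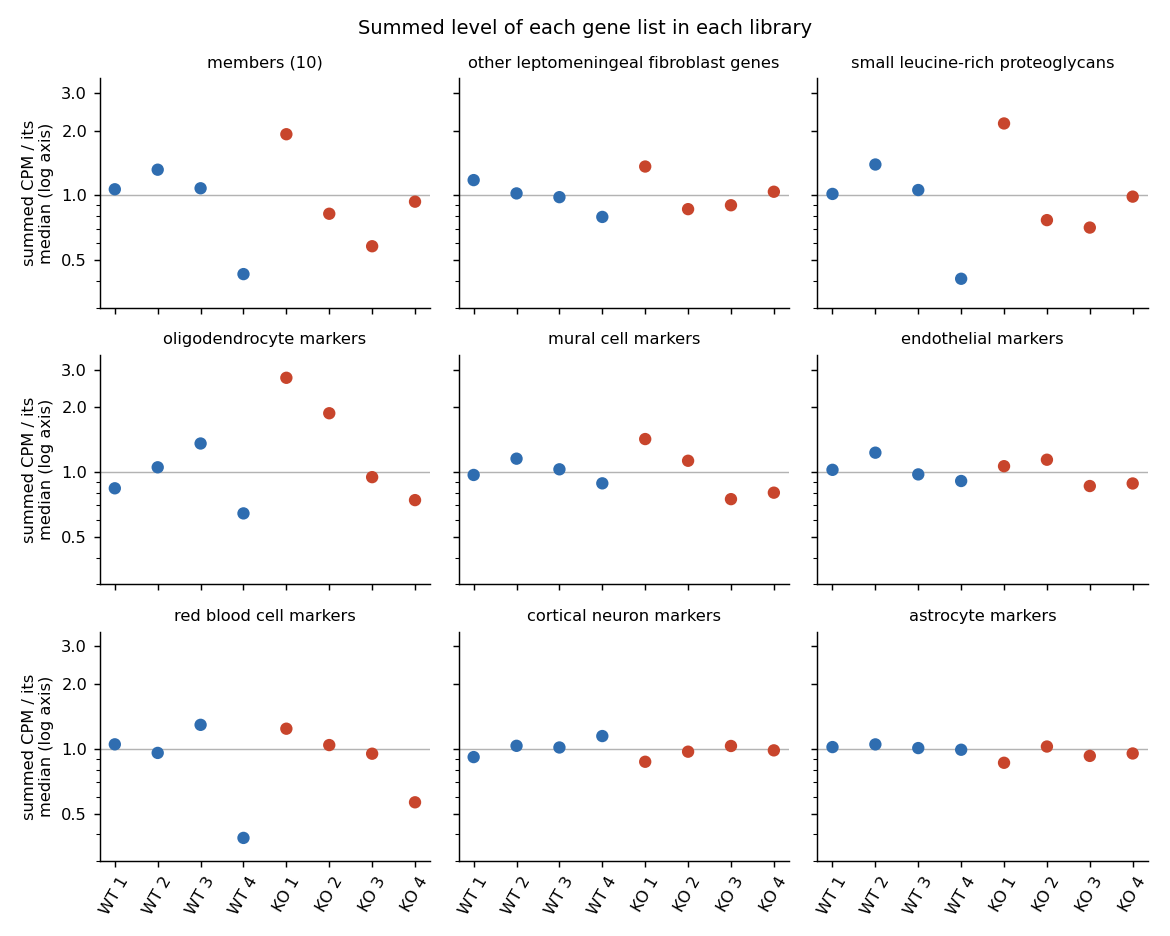
Summed CPM of the 10 members and of 8 gene lists in each library, divided by the median of that list over the 8 libraries, on a log axis, with WT in blue and Mvp KO in red. The members run from 0.429 in WT 4 to 1.92 in Mvp KO 1, while astrocyte markers stay between 0.862 and 1.05.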

How the data were processed

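Stranded poly(A) libraries were made from cingulate RNA of male mice, 4 per genotype. The authors trimmed reads (cutadapt 1.10), removed ribosomal reads (Bowtie2 2.2.8), aligned to mm10 (STAR 2.5.3a) and deposited raw counts per gene (HTSeq 0.6.1p1, Ensembl annotation). The strand setting and the handling of ambiguous reads are not given in the sources used here. Groups came from the sample titles. Symbols and positions came from GENCODE vM21 (GRCm38), with a symbol for 53274 of 53379 genes.

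Counts were tested in edgeR 4.0.16 (R 4.3.3) with filterByExpr (minimum count 10), TMM scaling and the robust quasi-likelihood F test, Mvp KO against WT, over all genes passing the filter, with Benjamini-Hochberg adjustment at 0.05. Correlations used log2 CPM with a prior count of 2. Fits were tested on simulated counts with known changes. Alternatives were DESeq2 1.42.0, limma 3.58.1 voom with quality weights, DESeq2 size factors, other filters, no robust option, a replicate block and leaving out each library. Counting intervals cover counting error only, and libraries of 1 genotype differed by more than sampling noise in every pair. The members, gene lists and tests were chosen with earlier results of these data known. Named genes were the members, Mvp, the gene of lowest p and of highest level in each list, list genes with groups that did not overlap or levels near 0, and the 10 genes most like the members' mean; Serping1, Cbr2, Lox and Loxl2 fall under the last. Some genes that this rule names are not reported here.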

Additional observations from a re-analysis of the deposited data

Results flagged for a closer look

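Within each genotype, the level of each of the members, their summed level, the level of Mvp and the total count of each library were checked for a single library far from the other 3, as the gap to its nearest neighbour divided by the range of the 4 (Dixon's ratio, above 0.829). Of 26 such groups, 3 stood out, where chance gives about 1.3. Dcn in Mvp KO had a ratio of 0.832, with Mvp KO 1 at 28.3 CPM and the nearest library at 8.93 CPM. Mvp in Mvp KO had a ratio of 0.903, with Mvp KO 3 at 2.13 CPM and the others at 1.44 to 1.51 CPM. The total count in WT had a ratio of 0.857, with WT 2 at 42854368 counts and the other WT libraries at 33408202 to 34760784 counts. No cause was tested for any of these.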

How the results depend on the processing

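No tested member passed an adjusted p of 0.05, or an unadjusted p under 0.05, in any alternative fit run, but the signs were not stable. With limma voom and quality weights the log2 fold changes were -0.48 for Dcn, -0.47 for Lum, -0.63 for Col1a1, -0.24 for Col1a2, -0.88 for Col3a1, -0.73 for Slc6a13, -0.62 for Slc13a4 and -0.92 for Aldh1a2, opposite in sign to edgeR, and their median was -0.62. Those weights gave WT 4 the least influence. Col1a1 was at -0.00036 with DESeq2 size factors. Leaving out 1 library at a time gave a range of -0.29 to 0.73 for Dcn, -0.27 to 0.74 for Lum, -0.28 to 0.24 for Col1a1, -0.16 to 0.20 for Col1a2, -0.39 to 0.83 for Col3a1, -0.33 to 0.073 for Igfbp2, -0.44 to 0.34 for Slc6a13, -0.44 to 0.73 for Slc13a4 and -0.58 to 0.54 for Aldh1a2. The median of the members ran from -0.33 without Mvp KO 1 to 0.46 without WT 2, and the ratio of their summed levels from 0.80 without Mvp KO 1 to 1.26 without Mvp KO 3. Over all genes tested, DESeq2 called 2 genes and the fits without 1 library 0 to 1. At an unadjusted p under 0.05 there were 264 genes, 555 with limma voom and 558 with no filter, and 193 to 471 without 1 library. With no scaling beyond the total count, chosen after seeing the data, 9 members were highest in Mvp KO 1 and 8 lowest in WT 4.

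Replicate numbers are shared by WT and Mvp KO, but nothing says that they pair animals, and deviations of same-numbered libraries correlated at 0.05, 0.29, -0.01 and 0.05. With the replicate number as a block, the median of the members was 0.22, 0 members and 0 genes passed, and Mvp had a log2 fold change of -2.07 at an adjusted p of 0.0850.

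The precision is limited by the spread between the 4 libraries of a genotype and not by counting, since the 9 tested members had 905 to 5204 counts each. Igf2, with 69 counts, could not be compared.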

Other observations

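The gene whose level followed the members' mean most closely over the 8 libraries was Stard9, a gene on no fixed list here (r = 0.99, and 0.99 again without WT 4 and Mvp KO 1). It was at 15.6, 16.3, 15.4 and 10.4 CPM in WT 1 to 4 and at 20.3, 14.8, 12.5 and 14.7 CPM in Mvp KO 1 to 4, with the same libraries at both ends as 6 of the members. It was ranked first among 16914 genes by this measure, and no cause was tested.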
